A study of Mus musculus with 6 samples.

Results

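The mouse Zfp genes are zinc finger genes named by number, and 309 of the 400 protein-coding genes with such a name were expressed in these leukemia libraries and are described here. A gene was taken when its mean over the 6 libraries reached 2 CPM (counts scaled to a common library total), which held for 280 genes, or when the mean of either genotype group reached 1 CPM. The second condition added 18 genes past 1 CPM in both groups, 7 past it in the wild-type group only and 4 past it in the knockout group only. The genes were thus chosen by their measured levels, and the last 11 were chosen by 1 group's level, so their differences are given as values and support nothing. The other 91 Zfp genes lay below these levels, and 21 of them had 0 counts in all 6 libraries.

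Most Zfp proteins carry tandem C2H2 fingers, small folds held by a zinc ion that read DNA bases, and many also carry a KRAB box at the N terminus. The KRAB box recruits the corepressor TRIM28 (KAP1), which brings the H3K9 methyltransferase SETDB1 and heterochromatin proteins to the bound site, and retrotransposons are the best known targets. KRAB zinc finger genes arose by repeated tandem duplication and sit in clusters of similar copies. A few genes share only the name, among them the Zfp36 family, whose CCCH fingers bind AU-rich elements in mRNA and lead to decay of that mRNA.

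The study measured bulk RNA of mouse leukemia carrying MLL-AF9, a fusion of a histone methyltransferase with a subunit of elongation complexes that drives acute myeloid leukemia. It compared 3 libraries labelled Rbm5 knockout (numbers 31, 32 and 40) with 3 labelled Rbm5 wild type (numbers 25, 27 and 29). RBM5 is an RNA-binding protein that acts in pre-mRNA splicing, and the series asked how it affects the gene program of MLL leukemia. The labels give bone marrow as the tissue and name both whole marrow and cultured cells as the RNA source, and they call the libraries independent replicates without giving strain, age or sex. All 6 libraries share the MLL-AF9 background, and the labels do not say how Rbm5 was deleted or which cells of the host remained.

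Library totals were 26359299 to 31807588 counts, and levels below are CPM scaled by TMM, edgeR's factor for library composition. Rbm5 itself was not lower in the knockout-labelled libraries, at 260 ± 13.1 CPM against 205 ± 28.1 CPM (SD, n = 3 each), with a log2 fold change of 0.34 and an adjusted p of 0.107, so the groups are called by their labels. The Y-linked gene Ddx3y was at 0 in the 3 wild-type libraries and at 98.4 to 135 CPM in the knockout-labelled ones, while Xist was at 1269 to 1625 CPM and 13.02 to 192 CPM, so sex and label cannot be told apart. Mature neutrophil markers summed to 1530 to 4314 CPM in wild-type libraries and 13970 to 31090 CPM in knockout-labelled ones, with 15 of 20 markers higher, and 3 of 15 monocyte markers were higher too. Of 12 erythroid, 11 T and NK cell, 9 B cell and 9 stromal and endothelial markers, 5, 7, 3 and 5 were tested. Of those tested, 1, 1, 0 and 0 passed as higher, with median log2 fold changes of 0.11, 1.39, 0.49 and 0.80. The B cell counts, median and sum leave out Ighm, which was listed too. Ighm was at 76.5 to 122 CPM against 68.5 to 178 CPM and did not pass (log2 0.15, edgeR adjusted p 0.838). The summed level of each of these lists overlapped between the groups, but 1 gene made up most of 3 of the sums. In wild-type library 25, Tfrc gave 175.5 of 178.7 CPM of the erythroid sum and Nkg7 53.8 of 56.9 CPM of the T and NK cell sum. Pecam1 gave 180.6 of 186.6 CPM of the stromal and endothelial sum. The overlap of these sums thus says little of the other markers. Chromosome 6 genes ran high in wild-type libraries 27 and 29, as detailed below. In bulk RNA, fewer cells of a type and less RNA per cell cannot be told apart. The part of these differences in the Zfp results was not tested.

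The promoters of 4 genes are printed first, since 3 of these genes belong to the group on chromosome 4 described below. Zfp987 and Zfp984 are KRAB genes of distal chromosome 4 with higher values in the knockout-labelled libraries. Zfp984 passed the test, and Zfp987 was chosen through the knockout group alone, so its call supports nothing. Capitals mark runs of at least 10 bases that are identical in an alignment of the pair, 5 runs with 75 bases in all, the longest of 22 bases. Each sequence is the 250 bases before the RefSeq start, 5′ to 3′ on the gene's strand, in GRCm38.p6 coordinates.
Zfp987, chr4:146097062-146097311, plus strand: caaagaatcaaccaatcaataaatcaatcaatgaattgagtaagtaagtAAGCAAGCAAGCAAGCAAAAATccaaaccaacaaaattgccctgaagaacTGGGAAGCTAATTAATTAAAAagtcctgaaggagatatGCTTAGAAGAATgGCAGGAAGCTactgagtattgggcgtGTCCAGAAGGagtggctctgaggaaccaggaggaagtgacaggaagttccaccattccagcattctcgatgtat
Zfp984, chr4:147809789-147810038, minus strand: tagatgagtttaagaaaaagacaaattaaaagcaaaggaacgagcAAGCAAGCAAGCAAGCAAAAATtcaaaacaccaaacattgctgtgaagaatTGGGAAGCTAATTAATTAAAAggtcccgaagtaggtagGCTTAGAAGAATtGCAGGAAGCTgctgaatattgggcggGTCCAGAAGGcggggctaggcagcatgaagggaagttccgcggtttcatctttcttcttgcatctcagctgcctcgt
Over 226 aligned bases, 81.4% were identical. The neighbour Zfp933, which did not pass the test, shows no such likeness to Zfp984, with 8 identical bases in an alignment that paired 15. Zfp993, which did not pass either, had 9 identical bases of 11 paired with Zfp984. With Zfp987, Zfp933 had 27 identical bases of 38 paired and Zfp993 had 28 of 44. Zfp268, Zfp992 and Zfp991 had no promoter entry under those symbols, so likeness cannot be set beside the calls. In the next pair, capitals mark CACGTG, the palindromic E-box that MYC and related factors can bind, shown because the series title names MYC. Zfp820 is a chromosome 17 gene that was lower in the knockout-labelled libraries.
Zfp933, chr4:147848419-147848668, minus strand: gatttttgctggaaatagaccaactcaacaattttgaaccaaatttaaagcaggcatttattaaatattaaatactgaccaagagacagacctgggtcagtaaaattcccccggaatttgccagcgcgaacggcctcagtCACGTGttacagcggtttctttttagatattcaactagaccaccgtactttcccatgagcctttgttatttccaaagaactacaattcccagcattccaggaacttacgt
Zfp820, chr17:21845760-21846009, minus strand: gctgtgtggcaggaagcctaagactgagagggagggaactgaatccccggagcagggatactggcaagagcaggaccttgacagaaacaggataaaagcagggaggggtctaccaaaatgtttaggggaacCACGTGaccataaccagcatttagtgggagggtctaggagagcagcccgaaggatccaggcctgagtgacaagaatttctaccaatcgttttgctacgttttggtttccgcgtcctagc
The RefSeq table held a promoter entry for 260 of the 309 genes by symbol, in 312 windows. CACGTG, which reads the same on both strands, stood in 5.77% of those windows and in 6.02% of all 32851 windows of the table. CCAAT, searched with its reverse ATTGG, stood in 46.5% of the Zfp windows and 33.8% of all windows. GGGCGG, searched with CCGCCC, stood in 30.3% of the windows of KRAB genes, 57.5% of those of other Zfp genes and 32.7% of all windows, beside a median GC content of 52.4%, 61.2% and 52.4%. TATAAA, searched with TTTATA, stood in 6.09% of the Zfp windows and 12.4% of all windows. None of these motifs contains another, and a match describes letters only.

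As a whole the Zfp genes had medians near 0 and few calls. Of the 309 genes, all of which passed the low-count filter, 11 (3.56%) were higher and 6 (1.94%) lower in the knockout-labelled libraries at an adjusted p under 0.05 by edgeR's quasi-likelihood test. Over all 15963 genes tested, 5.45% were higher and 3.12% lower, 8.57% in either direction against 5.502% of the Zfp genes. Without the genes chosen under 2 CPM, 10 of 280 were higher and 4 lower. Scaling by total counts gave 6 higher and 8 lower of the 309, and DESeq2 gave 15 and 15. The median log2 fold change was 0.01 for the Zfp genes and -0.01 for all genes tested. From the lower to the upper quartile the Zfp genes spanned 0.47 on the log2 scale, and 80.3% of them lay within 0.5 of 0. Among the other protein-coding genes past the same level rule the quartiles spanned 0.51 and 74.0% lay within 0.5. Knockout-labelled and wild-type libraries did not overlap in 75 Zfp genes, 38 above and 37 below, which is 24.3% against 33.7% of all genes tested. A change of at least 2-fold was estimated for 14 Zfp genes, 4.53%, and for 10.6% of the other protein-coding genes. These shares describe the list, and the difference between the list and other genes was not tested.

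**Figure D1:**
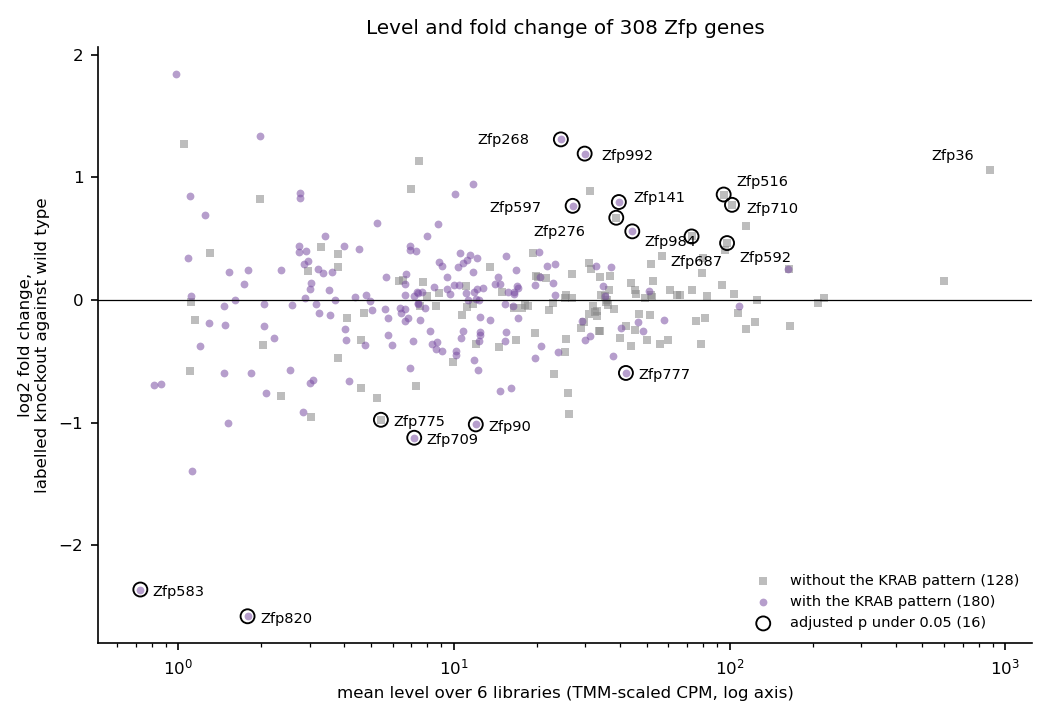
Each point is a Zfp gene, with its mean TMM-scaled CPM over 6 libraries on a log axis and its log2 fold change (labelled knockout against wild type); circles carry the KRAB pattern, squares do not, and open rings mark adjusted p under 0.05. Most genes sit within 0.5 of 0 at every level, and the scatter widens among the lowest genes; Zfp987, with 0 counts in wild-type libraries, is left out.

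A count of calls depends on level, and the Zfp genes are of modest level. Their median was 11.8 CPM, against 36.4 CPM for the other protein-coding genes past the rule, and 2.48 against 8.02 CPM per kb of gene length. Within the band from 5 to 20 CPM, 3 of 120 Zfp genes (2.50%) and 8.87% of the other genes passed, with quartiles 0.41 and 0.57 apart. From 20 to 50 CPM the shares were 10.1% (7 of 69) and 9.67%, and above 50 CPM 9.76% (4 of 41) and 11.9%. The gap between the shares was thus widest below 20 CPM and small above it.

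The calls rested on small groups. In all 17 called genes the groups did not overlap. Leaving out any single library could then hardly reverse a direction, and none was reversed. Zfp992 and Zfp268 passed in each of the 6 fits with 1 library left out. So did Zfp987, and the other 14 lost the call in at least 1. Zfp987, Zfp820 and Zfp583, 3 of the 17, were chosen through 1 group's level, so their calls support nothing. Of the 17, 6 passed without wild-type library 25, 6 without 27, 4 without 29, 3 without knockout-labelled library 31, 11 without 32 and 3 without 40. With wild-type libraries 27 and 29 both left out, so that the 1 wild-type library left takes its spread from the other group, 3 Zfp genes passed as higher and 0 as lower, 2 of them (Zfp516 and Zfp987) among the 17.

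**Figure D2:**
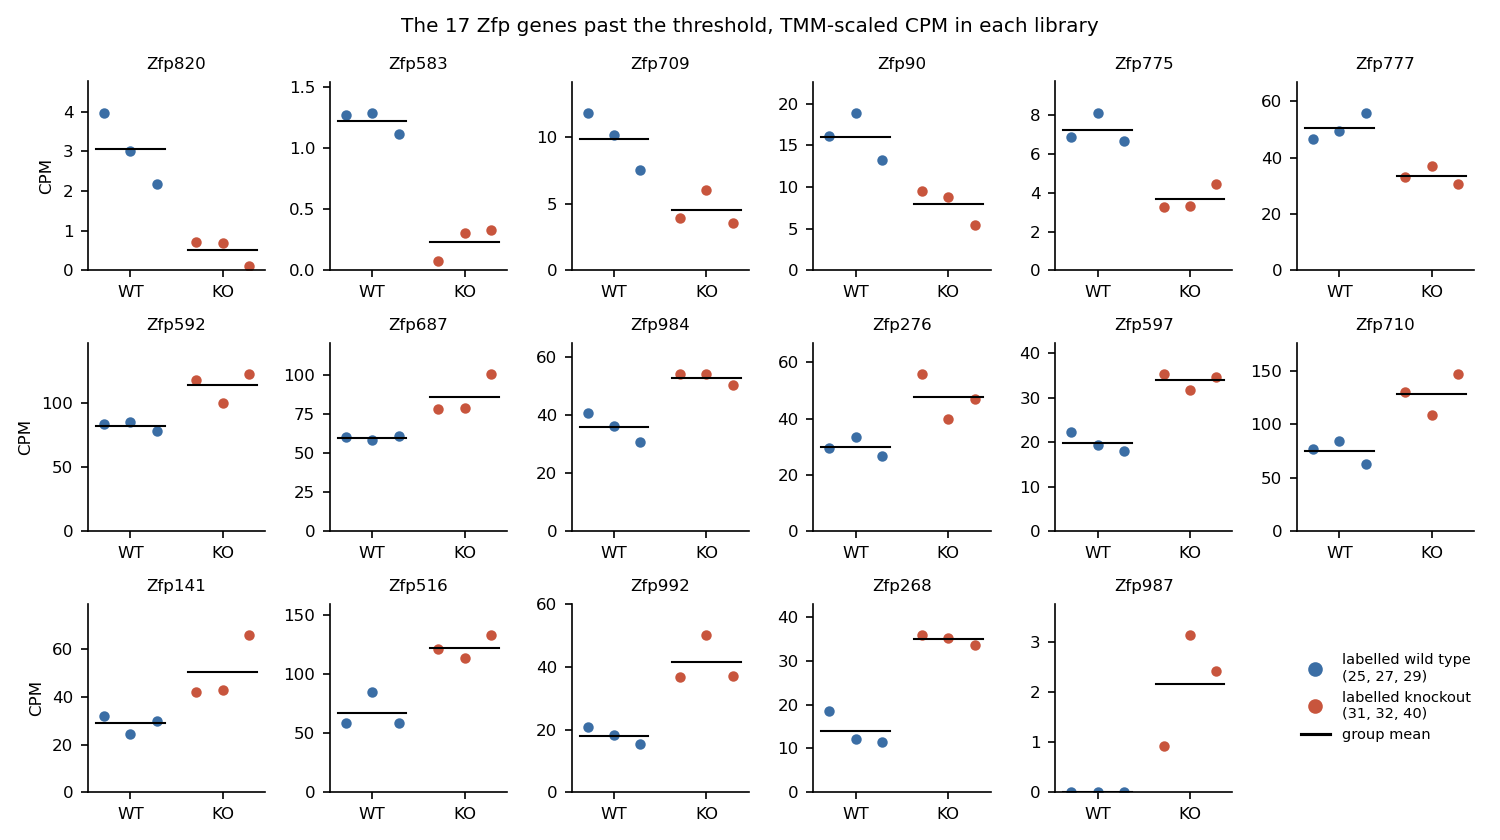
Panels give the TMM-scaled CPM of each of the 17 Zfp genes past the threshold, with 1 point a library (wild type 25, 27 and 29 at the left, knockout 31, 32 and 40 at the right, in that order), axes from 0 and black lines at group means. In every panel the 2 groups are separate; Zfp820, Zfp583, Zfp709, Zfp90, Zfp775 and Zfp777 are lower and the other 11 higher in the knockout-labelled libraries.

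A group of KRAB genes on distal chromosome 4 held 4 of the 11 rises, among them Zfp987, which was chosen through the knockout group alone. No build is given for the table's coordinates, in which the interval chr4:145311736-147932823 holds 7 Zfp genes, all with the KRAB pattern, and was delimited after the values were seen. Zfp992 was at 20.9, 18.2 and 15.3 CPM in wild-type 25, 27 and 29 and at 36.9, 50.2 and 37.3 CPM in knockout-labelled 31, 32 and 40. Every knockout-labelled library thus stood well above the highest wild-type one, a 2.29-fold rise (log2 1.19, SE 0.17, edgeR adjusted p 0.00993). Zfp268, which has 20 fingers in its translated sequence, was at 18.6, 12.1 and 11.5 CPM against 35.8, 35.1 and 33.5 CPM. The knockout-labelled values lay within a narrow band, and the rise was 2.48-fold (log2 1.31, SE 0.20, edgeR adjusted p 0.0109). Its fingers are the most numerous among the called KRAB genes. Zfp984, the most abundant of the 7 at 15.2 CPM per kb, was at 40.8, 36.3 and 30.6 CPM against 54.0, 54.1 and 50.5 CPM. The rise of 0.56 on the log2 scale (SE 0.12, edgeR adjusted p 0.0348) was the smallest of the 4 and passed in 1 of 6 fits with 1 library left out (adjusted p up to 0.0888, without knockout-labelled library 40). The long noncoding RNA Gm20707, on the same strand, overlaps 49.2% of the span of Zfp984. It was at 3.87 and 4.72 CPM in the wild-type and knockout-labelled groups without passing.

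Zfp987 was the extreme case, but it was chosen through the knockout group alone and is given as a value. It had 0 counts in all 3 wild-type libraries and 25, 82 and 59 counts in knockout-labelled libraries 31, 32 and 40, or 0.93, 3.14 and 2.41 CPM. With the wild-type libraries set to a floor of 3 counts in all, its level was at least 67.3-fold higher. The gene was scarce even where it was seen, at 0.36 CPM per kb.

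The other 3 Zfp genes of the interval did not pass. Zfp991 was at 24.5, 19.3 and 24.6 CPM in wild-type libraries and 14.9, 18.2 and 16.2 CPM in knockout-labelled ones. These values run opposite to those of the 4 called genes of the interval. The groups did not overlap, at a log2 fold change of -0.47 (edgeR adjusted p 0.102). Zfp993 was at 4.76 to 6.88 CPM against 4.24 to 7.52 CPM, and Zfp933 at 5.46 to 8.79 CPM against 5.13 to 8.49 CPM, so both overlapped between groups. The 14 other tested genes of the interval, pseudogenes and long noncoding RNAs, gave 0 calls by the edgeR test, with a median log2 fold change of 0.21. Near Zfp987 and Zfp992 the estimates ran in both directions. Gm13034, which ends before the start of Zfp987, was at -0.47, and Gm13237, between Zfp992 and Zfp993, was at -0.13. In the cluster that Zfp987 and Zfp992 form with Zfp993, the 4 other tested genes, Gm13237 among them, had a median of 1.34, against 1.19 for Zfp992. Gm13166 (0.53 to 1.11 CPM against 1.64 to 2.08 CPM), Gm13241 (1.08 to 3.38 against 4.05 to 6.96 CPM) and Gm13245 (0.67 to 1.27 against 1.35 to 3.14 CPM) were separate between the groups, with log2 fold changes of 1.32, 1.43 and 1.36 and edgeR adjusted p of 0.0905, 0.0941 and 0.0973. Some genes of this stretch other than Zfp genes thus had higher values too, but none of them passed.

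Sequence shared among these copies limits which gene each count belongs to. Of the distinct 31-base words in its transcripts, Zfp987 shared 93.1% with transcripts of other genes, Zfp993 91.9% and Zfp991 88.0%. The shares were 70.8% for Zfp268, 68.8% for Zfp984 and 48.3% for Zfp992, and Zfp992 shared most with Zfp991 (41.7% of its words). Counts of these genes can have been split between copies by the authors' counting, and the higher values of Zfp987, Zfp268, Zfp984 and Zfp992 and the lower values of Zfp991 are uncertain to that extent. Over all 309 genes, 70 shared more than 10% of their words. Of those 70, 5 were higher and 1 lower (8.57% called), and of the other 239, 6 higher and 5 lower (4.60%). The share over all genes tested was 8.57%.

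**Figure D3:**
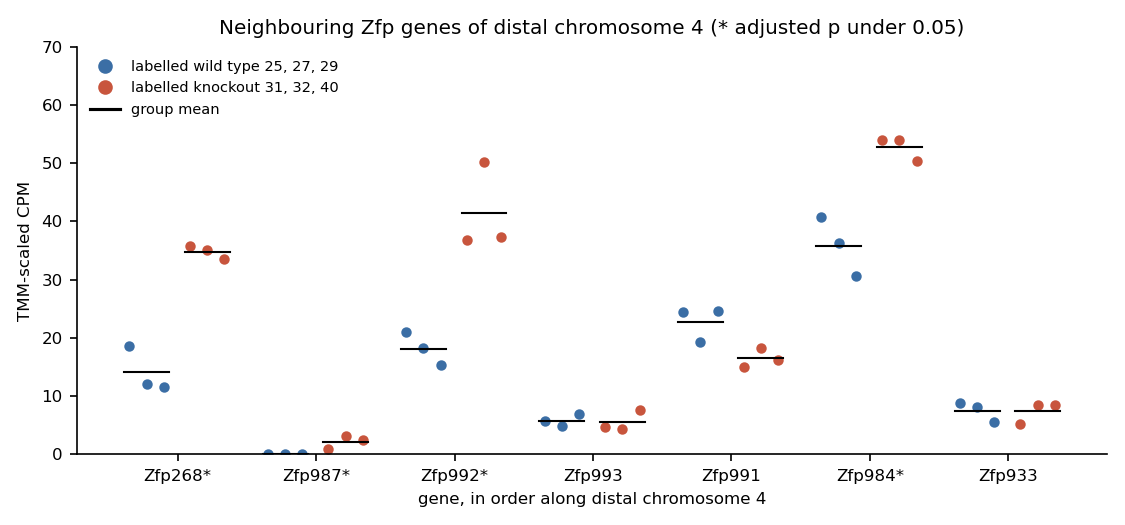
TMM-scaled CPM (axis from 0) of the 7 Zfp genes of distal chromosome 4 in their order on the chromosome, 1 point a library, with black lines at group means and asterisks at adjusted p under 0.05. Zfp268, Zfp992 and Zfp984 are higher in all 3 knockout-labelled libraries, Zfp987 is seen in those libraries alone, and Zfp991 is lower.

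The KRAB pattern was found in 181 of the 309 genes, by a scan of translated reading frames. Of these, 6 were higher and 5 lower (6.08% called), with a median log2 fold change of 0.03. Among the 128 genes without it, 5 were higher and 1 lower (4.69% called), with a median of -0.01. Over all genes tested, 8.57% were called. A mean of at least 2 CPM leaves out Zfp987, Zfp820 and Zfp583, which were chosen through 1 group's level. At that level 5 of 158 KRAB genes were higher and 3 lower (5.06%), and 5 and 1 of the 122 others (4.92%). The difference between the classes was not tested. The classes differed in what the level rule did not use. KRAB genes had a median of 12 fingers and 80.1% lay in clusters, while the others had 7 fingers and 27.3% lay in clusters. Shared words had a median of 4.81% in KRAB genes and 0.44% in the others. KRAB genes were also the scarcer class, at a median of 1.71 CPM per kb against 5.47.

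Summed over all KRAB genes, the level was 2442, 2357 and 1964 CPM in wild-type 25, 27 and 29 and 2288, 2412 and 2232 CPM in knockout-labelled 31, 32 and 40. Wild-type library 29 was the lowest, and the groups overlapped. Its median deviation from the gene means was -0.22 on the log2 scale over the KRAB genes, the lowest of the 6, where library 25 had 0.13 and the knockout-labelled libraries -0.08 to 0.09. Over the genes without the pattern the same library stood at -0.05.

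Among KRAB genes, 5 were lower in the knockout-labelled libraries, and 2 of them, Zfp820 and Zfp583, were chosen through the wild-type group alone. Zfp820 was at 3.97, 3.02 and 2.19 CPM in wild-type 25, 27 and 29 and at 0.71, 0.69 and 0.12 CPM in knockout-labelled 31, 32 and 40. Zfp583 was at 1.27, 1.29 and 1.11 CPM against 0.07, 0.31 and 0.33 CPM, or 43, 37 and 35 counts against 2, 8 and 8. Both genes were scarce, and their fitted log2 fold changes of -2.58 and -2.36 rest on few counts. Zfp709, at 11.8, 10.2 and 7.52 CPM against 3.94, 6.00 and 3.60 CPM, fell by 1.12 on the log2 scale (SE 0.29, edgeR adjusted p 0.0499). Zfp90 was at 16.1, 18.9 and 13.2 CPM against 9.56, 8.87 and 5.39 CPM. The groups were separate, at a log2 fold change of -1.01 (SE 0.26, edgeR adjusted p 0.0481). Zfp777 on chromosome 6 was the most abundant of the 5, at 46.7, 49.3 and 55.9 CPM against 33.0, 36.9 and 30.6 CPM (log2 -0.59, SE 0.12, edgeR adjusted p 0.0251). Leaving out single libraries raised the adjusted p of these 5 genes to 0.0870 (Zfp820, without wild-type 25), 0.0979 (Zfp583, without knockout-labelled 40), 0.161 (Zfp709, without knockout-labelled 40), 0.126 (Zfp90, without wild-type 27) and 0.0919 (Zfp777, without knockout-labelled 40). Of the 6 such fits, Zfp777 passed in 2, Zfp709 in 1, and Zfp820, Zfp583 and Zfp90 in 0.

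Beside the chromosome 4 genes, Zfp597 and Zfp141 were the KRAB genes that rose. Zfp597 was at 22.4, 19.4 and 18.0 CPM in wild-type libraries and 35.4, 31.8 and 34.7 CPM in knockout-labelled ones. The groups lay far apart relative to their SDs of 2.28 and 1.89 CPM, with a log2 fold change of 0.77 (SE 0.13, edgeR adjusted p 0.0164, past the threshold in 4 of 6 fits with 1 library left out). The protein-coding gene Naa60, on the other strand, overlaps 46.4% of the span of Zfp597 and was itself called higher (80.0 against 107 CPM, log2 0.42). The sources used here do not say how strand entered the counting, so reads of the pair may not be separable. Zfp141 was at 32.3, 24.4 and 30.1 CPM against 42.1, 42.9 and 66.1 CPM, and library 40 was the highest. Its log2 fold change of 0.80 (SE 0.20, edgeR adjusted p 0.0470) missed the threshold in all 6 fits with 1 library left out (adjusted p 0.0528 to 0.127), under upper-quartile and total-count scaling and in limma-voom.

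KRAB genes with a described role were called at about the share of all genes tested. Of the 14 listed, 10 were expressed, 1 (Zfp268) was higher and 0 lower, so 1 in 10 against 8.57% of all genes tested, with a median of -0.11. Zfp445, which protects imprinted methylation, was the most abundant KRAB gene per length at 22.0 CPM per kb. It was at 178, 151 and 118 CPM in wild-type libraries and 170, 194 and 169 CPM in knockout-labelled ones, so the groups overlapped (log2 0.25, edgeR adjusted p 0.317). Zfp809, which silences integrated murine leukemia virus and related elements, was at 16.1 to 20.5 CPM against 18.0 to 24.2 CPM. Zfp568, a repressor of a placental Igf2 transcript, was at 48.3 to 56.3 CPM against 40.4 to 48.4 CPM. Zfp932, which silences endogenous retroviruses, was at 26.9, 19.9 and 13.3 CPM against 13.4, 13.8 and 9.48 CPM. Its values ran lower in the knockout-labelled libraries but spread widely among the wild-type ones (log2 -0.71, edgeR adjusted p 0.142), and 48.3% of its words were shared with other genes. Zfp689, Zfp961, Zfp825 and Zfp819 had log2 fold changes of -0.66, -0.26, 0.04 and 1.34, with edgeR adjusted p of 0.247 to 0.933, and the estimate of Zfp819 came with 5.72 CPM in library 40 against 0.68 to 1.84 CPM in the other 5 libraries. Zfp746 (PARIS), listed with them, scored below the KRAB threshold used here and was at -0.33 (adjusted p 0.233).

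Of the genes for partners of the KRAB box, 1 passed. Of 33 corepressor and heterochromatin genes found in the table, all were tested, 0 were higher and 1 was lower. That was 3.03% called against 8.57% of all genes tested. An unadjusted p under 0.05 in the edgeR test was reached by 9 of the 33, and by 4293 of all 15963 genes tested. The median log2 fold change was -0.07. DESeq2 called 1 higher and 3 lower. Trim28 was at 439, 418 and 462 CPM in wild-type libraries and 443, 378 and 369 CPM in knockout-labelled ones (log2 -0.15, edgeR adjusted p 0.402). Setdb1 was at 84.3 to 102 CPM against 80.6 to 85.7 CPM (log2 -0.14, edgeR adjusted p 0.391). The single call was Atf7ip2, a relative of the SETDB1 partner ATF7IP, lower at 1.21 ± 0.55 CPM and 0.20 ± 0.11 CPM (SD, n = 3 each) with an edgeR adjusted p of 0.0443. Zfp410, a C2H2 factor best known for activating Chd4, was at 46.3 to 50.8 CPM against 47.2 to 52.4 CPM, and Chd4 itself was at 531 ± 21.1 CPM and 479 ± 63.5 CPM (SD, n = 3 each; log2 -0.15, edgeR adjusted p 0.453).

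Among C2H2 factors without a KRAB box, 4 of the 27 expressed members of the listed group rose and 0 fell. That was 14.8% called against 8.57% of all genes tested, in a list chosen with earlier results of these data known. Over all 128 Zfp genes without the KRAB pattern, 5 rose and 1 fell, 4.69% called. The median of the 27 was 0.04, and 22 of them lay within 0.5 of 0. Zfp516, known as an activator of the brown fat gene Ucp1, was at 58.9, 85.2 and 58.8 CPM in wild-type libraries and 121, 114 and 133 CPM in knockout-labelled ones. It had the largest rise of the 4, 1.82-fold (log2 0.86, SE 0.16, edgeR adjusted p 0.0205), and the groups were separate. Zfp710 was at 77.2, 85.0 and 63.5 CPM against 130, 109 and 147 CPM (log2 0.78, SE 0.15, edgeR adjusted p 0.0214). Zfp592 and Zfp687 encode partners of ZMYND8 in a transcriptional regulator complex, and both were among the 4. Zfp592 was at 83.6, 85.2 and 78.2 CPM against 118, 100 and 122 CPM (log2 0.46, SE 0.10, edgeR adjusted p 0.0337). Zfp687 was at 60.4, 58.1 and 61.1 CPM against 78.1, 78.5 and 101 CPM (log2 0.52, SE 0.12, edgeR adjusted p 0.0368). The wild-type libraries differed little in both genes, and neither passed when counts were scaled by totals alone. Leaving out knockout-labelled library 40 raised the adjusted p to 0.0764 for Zfp516, 0.0735 for Zfp710 and 0.111 for Zfp592, and leaving out wild-type library 27 raised that of Zfp687 to 0.105. Zfp516 and Zfp710 passed in 2 of the 6 fits with 1 library left out, and Zfp592 and Zfp687 in 1.

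Zfp276, a C2H2 gene in none of the lists, rose as well. It was at 29.5, 33.5 and 26.8 CPM in wild-type libraries and 55.9, 40.02 and 47.1 CPM in knockout-labelled ones (log2 0.67, SE 0.15, edgeR adjusted p 0.0349; 0.105 without knockout-labelled library 40, and past the threshold in 1 of 6 such fits). Fanca, on the other strand, overlaps 9.30% of its span and was at 106 and 132 CPM in the 2 groups without passing. Of the 17 called genes, 10 overlap another gene, and 6 overlap one that was tested. Gm21057, on the other strand, overlaps 18.1% of Zfp710 and was at 1.46 and 2.51 CPM without passing. Gm44965, on the same strand, overlaps 81.3% of Zfp775 and was at 0 CPM in both groups.

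The remaining 23 expressed C2H2 factors of the list did not pass. Zfp704 was at 43.1, 29.1 and 25.2 CPM against 24.0, 19.7 and 13.9 CPM, and Zfp467 at 6.88, 4.93 and 2.25 CPM against 14.5, 7.65 and 8.74 CPM. Those were the lowest and highest estimates of the group that missed the threshold, -0.76 (edgeR adjusted p 0.111) and 1.13 (adjusted p 0.139), each with groups that did not overlap. Widely expressed activators such as Zfp143, at 30.9 to 36.0 CPM against 33.3 to 46.6 CPM, and Zfp148, at 69.5 to 72.0 CPM against 70.1 to 80.1 CPM, overlapped between groups. Zfp217, a corepressor-binding factor, was at 166, 153 and 130 CPM against 166, 171 and 197 CPM (log2 0.25, edgeR adjusted p 0.213). Zfp281, Zfp335, Zfp367, Zfp395, Zfp410 and Zfp740 had estimates within 0.03 of 0. The listed genes Zfp423, Zfp462, Zfp521, Zfp532 and Zfp711 were below the level rule.

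Zfp genes that act on RNA, ribosomes or ubiquitin gave no call. All 11 listed genes were expressed, and by the edgeR test 0 passed and 0 had an unadjusted p under 0.05, with a median of -0.03 and estimates from -0.37 to 0.41. Zfp207 (BuGZ), a spindle assembly factor, was at 223, 210 and 202 CPM against 217, 196 and 210 CPM (log2 -0.03). Zfp598, the ubiquitin ligase that senses collided ribosomes, was at 85.0 to 96.3 CPM against 95.3 to 101 CPM (log2 0.13, edgeR adjusted p 0.399). Zfp622, a 60S ribosome assembly factor, was at 78.8, 68.0 and 101 CPM against 84.7, 83.4 and 161 CPM, and library 40 was well above the rest, with an estimate of 0.41 (edgeR adjusted p 0.414). Zfp106, Zfp326, Zfp638 and Zfp451 had log2 fold changes of 0.01, -0.08, 0.05 and -0.13.

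The 3 expressed genes of the Zfp36 family had the highest levels per length of all Zfp genes. Zfp36 and Zfp36l1 spread widely within groups, and Zfp36l3 was below the level rule. Per length, Zfp36 (tristetraprolin), Zfp36l2 and Zfp36l1 were the first 3 of the 309 genes, at 253, 169 and 38.2 CPM per kb, followed by Zfp706 at 33.4 and Zfp207 at 31.5. Zfp692, Zfp217, Zfp740, Zfp598 and Zfp703 complete the first 10, at 23.99 to 28.99 CPM per kb. Zfp36 was at 458, 392 and 856 CPM in wild-type 25, 27 and 29 and 690, 855 and 2012 CPM in knockout-labelled 31, 32 and 40. Library 40 was more than 2-fold above all others and the groups overlapped (log2 1.06, SE 0.51, edgeR adjusted p 0.246). Zfp36l1 was at 60.6, 101 and 111 CPM against 48.1, 152 and 214 CPM, and Zfp36l2 at 467, 546 and 685 CPM against 580, 662 and 644 CPM. Neither was separate between groups.

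Zfp36 is itself an immediate early gene, induced within minutes when cells are stimulated or handled. A list of 17 immediate early genes summed to 4415, 3855 and 10680 CPM in wild-type libraries and 6698, 8404 and 21200 CPM in knockout-labelled ones. The 6 libraries fall in the same order by this sum as by Zfp36. Of those 17 genes 0 passed the edgeR test, 4 had an unadjusted p under 0.05, and the median log2 fold change was 0.90. Over all 15963 genes tested, 4293 had an unadjusted p under 0.05. The part of handling or stimulation in the Zfp36 values was not tested.

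**Figure D4:**
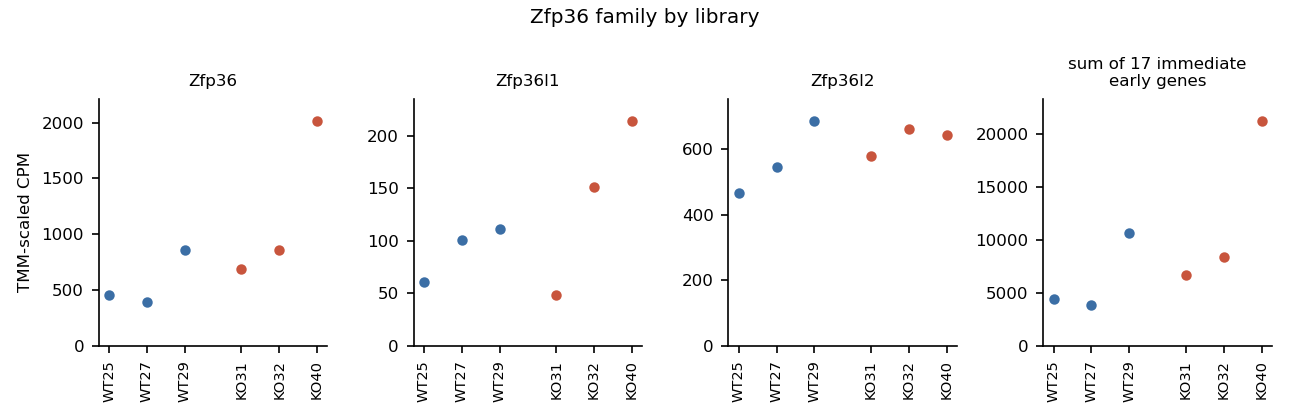
TMM-scaled CPM (axes from 0) of Zfp36, Zfp36l1, Zfp36l2 and the sum of 17 immediate early genes in each library, wild type (WT) and labelled knockout (KO). Library 40 is the highest for Zfp36, for Zfp36l1 and for the sum, and wild-type library 29 is the highest of its group in all 4 panels.

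Most of the Zfp genes lie in clusters, and the large clusters had medians near 0. With neighbouring starts under 500 kb apart and at least 3 genes, 28 clusters held 180 of the 309 genes (58.3%). Of these 180, 4 were higher and 5 lower (5.00% called), and of the 129 outside 7 and 1 (6.20%). Over all genes tested, 8.57% were called. The calls in clusters include Zfp987, Zfp820 and Zfp583, which were chosen through 1 group's level and support nothing. The difference between the sets was not tested. The largest, chr17:21229165-23783212 in the table's coordinates, holds 22 genes, all with the KRAB pattern, with 0 higher and 1 lower (Zfp820). Its median log2 fold change was 0.15, and its sum was 238, 204 and 156 CPM in wild-type libraries against 201, 233 and 202 CPM. The next, chr13:67186660-67975121, holds 20 KRAB genes with 0 called and a median of 0.11. Its sum was 126, 118 and 86.0 CPM against 130, 124 and 115 CPM. In both, wild-type library 29 was the lowest and the groups overlapped.

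The second gene of chromosome 17's large cluster by p, Zfp213, was at 13.03 to 14.5 CPM against 8.59 to 11.01 CPM and did not pass (edgeR adjusted p 0.120). In the chromosome 13 cluster, Zfp456 (1.27 to 2.85 CPM against 3.16 to 4.00 CPM) and Zfp712 (2.22 to 3.29 CPM against 3.61 to 4.41 CPM) came nearest, with edgeR adjusted p of 0.172 and 0.281. A chromosome 7 cluster of 12 genes, chr7:29467977-29869175, had a median of -0.13, and there Zfp146 was at 49.6 to 61.6 CPM against 38.2 to 48.2 CPM (log2 -0.32, edgeR adjusted p 0.158). A further 11 chromosome 7 genes at chr7:23781349-24215107 had a median of -0.04, and 12 genes at chr17:32984470-33850753 likewise -0.04. Zfp658, in a cluster of 4 chromosome 7 genes that all had estimates above 0, was at 5.17 to 9.62 CPM against 11.2 to 14.1 CPM and missed the threshold (log2 0.86, edgeR adjusted p 0.0773).

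**Figure D5:**
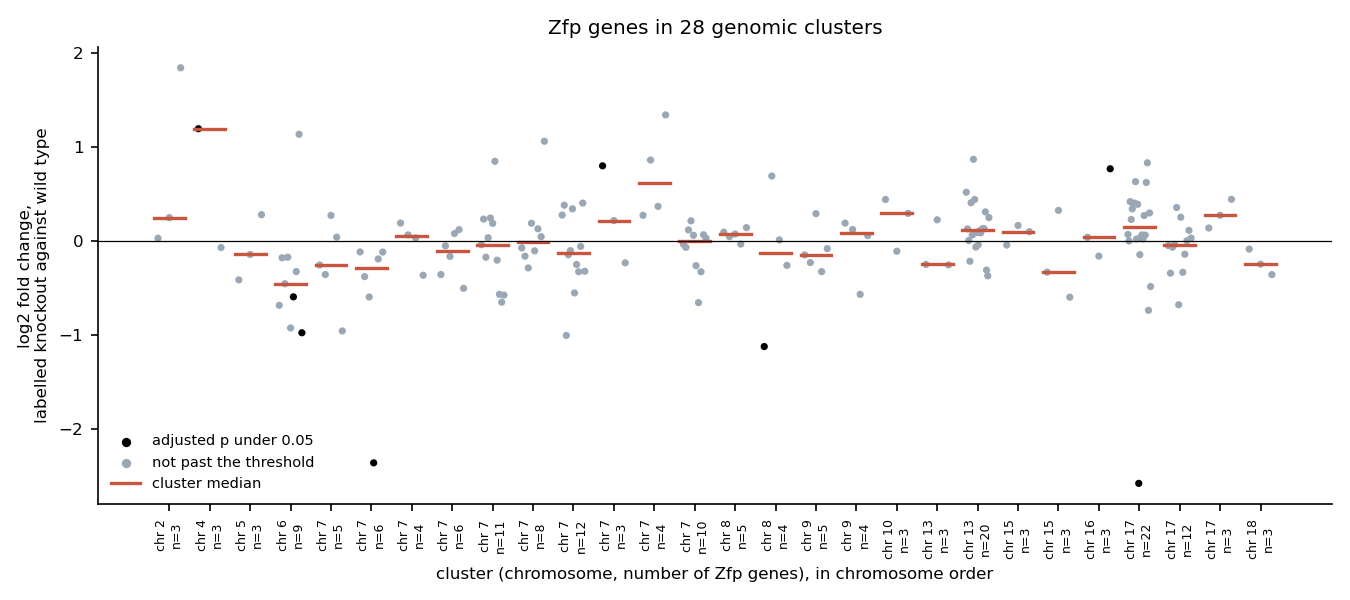
Each point is the log2 fold change (labelled knockout against wild type) of a Zfp gene in 1 of 28 clusters, in chromosome order with the number of genes per cluster; black points passed adjusted p under 0.05 and red lines are cluster medians. Medians of the clusters with 10 or more genes lie between -0.13 and 0.15; Zfp987 of the chromosome 4 cluster is off the scale and not drawn.

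The chromosome 6 Zfp genes mostly had estimates below 0, as had the other genes of that chromosome. Of 16 Zfp genes on chromosome 6, 0 were higher and 2 lower, with a median log2 fold change of -0.41 and 3 estimates above 0. Of the 549 other protein-coding genes past the level rule there, 19 were higher and 63 lower, with a median of -0.29. Median deviations of the 16 genes were 0.06, 0.29 and 0.17 in wild-type 25, 27 and 29 and -0.08, -0.12 and -0.19 in knockout-labelled 31, 32 and 40. The other genes of the chromosome stood at -0.12, 0.26 and 0.22 and at -0.10, -0.13 and -0.14, so libraries 27 and 29 were high for both sets. Zfp775 was at 6.85, 8.09 and 6.66 CPM against 3.24, 3.29 and 4.45 CPM (log2 -0.98, SE 0.25, edgeR adjusted p 0.0498, and 0.0857 to 0.138 with 1 library left out). With libraries 27 and 29 both left out, the estimates were -0.92 for Zfp775 and -0.49 for Zfp777, neither past the threshold (adjusted p 0.290 and 0.209).

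A cluster of 9 Zfp genes, chr6:47796200-48600161, contains both called genes. Its sum was 246, 321 and 298 CPM in wild-type libraries and 212, 239 and 216 CPM in knockout-labelled ones, and its median log2 fold change was -0.46. Zfp282 (39.4 to 49.5 CPM against 27.8 to 34.6 CPM, edgeR adjusted p 0.0746) and Zfp956 (26.4 to 44.0 CPM against 12.9 to 25.6 CPM, adjusted p 0.0941) lay below in all knockout-labelled libraries without passing. Zfp467 was the exception in the cluster, with its higher values given above. The 3 X-linked genes were near 0 or lower without passing. Zfp182 was at 0.10, Zfp275 at -0.05 and Zfp280c at -0.31 (edgeR adjusted p 0.134).

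Values at the edge of the level rule are given for the 3 genes nearest on each side. Just inside it, Zfp248 had 1.06 CPM in the wild-type group and 0.60 in the knockout-labelled one, Zfp786 1.13 and 0.64, and Zfp383 1.001 and 1.153, on the unscaled CPM of the rule. Just outside, Zfp964 had 0.80 and 0.50, Zfp937 0.88 and 0.32, and Zfp82 0.88 and 0.26. Of the genes chosen through the wild-type group alone, Zfp287, Zfp428 and Zfp940 complete the list beside those named, with TMM-scaled means of 1.63, 1.31 and 2.02 CPM against 0.62, 0.88 and 1.01 CPM. Those chosen through the knockout group alone were Zfp345, Zfp697, Zfp987 and Zfp108. Zfp345 had 0.04, 3.17 and 1.39 CPM across knockout-labelled 31, 32 and 40, so 2 libraries made its mean.

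Zinc finger genes under other names can be set beside the 8.57% called over all genes tested. Of 36 Zbtb genes past the same level rule, 1 was higher and 1 lower with a median of 0.01. The 9 Zscan genes gave 0 calls in the edgeR test, with 1 gene at an unadjusted p under 0.05, and a median of -0.19. Of 9 Zkscan genes 0 were higher and 1 lower (11.1% called), 4 had an unadjusted p under 0.05, and the median was -0.58. An unadjusted p under 0.05 was found in 4293 of all 15963 genes tested. Groups did not overlap in 55.6% of the Zkscan genes, against 33.7% of all genes tested. Of 40 further genes with both C2H2 fingers and the KRAB pattern, 39 were tested, 1 was higher and 0 lower, with a median of -0.09.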

How the data were processed

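The authors deposited a table of whole-number counts per gene, not normalized, for 56748 genes in 6 bulk RNA libraries. The submitters' processing notes name Salmon, limma, GRCm38 and mm10, without roles. The sources used here do not say how strand was treated, and the table's coordinates differ from GRCm38, so they are printed without a build. Groups come from the sample titles, 3 libraries each. Whether separate animals gave the replicates is not stated, so p-values measure the spread between these libraries.

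Genes were kept by filterByExpr (minimum count 10, total 15), scaled by TMM and tested with edgeR 4.0.16 in R 4.3.3 (robust quasi-likelihood, no covariate). The Benjamini-Hochberg adjustment ran over 15963 genes, with a threshold of 0.05. Tested on simulated data with 200 genes changed per draw, the fit recovered 15.2%, 62.4% and 88.5% of genes changed 1.5, 2 and 4-fold. Of the calls there, 8.31% were false. Every pair of libraries differed by more than sampling noise (chi-square per degree of freedom at least 43.9).

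KRAB boxes were scored by a 30-residue weight matrix (threshold 12 bits) on GENCODE M21 reading frames, because no RefSeq protein table was used here. Of 20872 proteins without a C2H2 finger, 22 reached the threshold. Shared words of 31 bases were counted over GENCODE M21 transcripts. Promoters are RefSeq's, matched by symbol. CPM per kb divides the mean by the table's gene length.

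The members and lists were chosen with earlier results of these data known. Named genes were list members, called genes, the 10 highest per length, up to 4 called or else the 2 smallest p per cluster, genes of chromosomes 6 and X, and genes at the level threshold or with 0 counts in 1 group. The chromosome 4 interval was set after its values were seen. Alternatives were RLE, upper-quartile and total-count scaling, other filters, no robust shrinkage, DESeq2 1.42.0, limma-voom (limma 3.58.1), leaving out each library, leaving out chromosomes 6, X and Y, and other level and gap limits. Leaving out wild-type libraries 27 and 29 together was added after seeing the data.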

Additional observations from a re-analysis of the deposited data

How the results depend on the processing

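The counts of Zfp genes past the threshold were 11 higher and 6 lower. Scaling by total counts gave 6 higher and 8 lower and put the median over all genes at -0.13 and that of Zfp genes at -0.1115 instead of 0.01, so the direction of more rises than falls depends on the scaling. DESeq2 gave 15 higher and 15 lower, 8 of the lower ones KRAB genes, and included all 17 genes of the edgeR test. Without robust shrinkage 3 KRAB genes were lower instead of 5. With wild-type libraries 27 and 29 left out, an alternative chosen after seeing the data, 3 Zfp genes were higher and 0 lower, with 1 and 0 among KRAB genes, and the median was -0.1064. Leaving out 1 library at a time gave 3 to 9 higher and 0 to 3 lower, 3 to 5 and 0 to 2 among KRAB genes, with a median of -0.0784 to 0.0536. RLE and upper-quartile factors, both filters, limma-voom, the fit without chromosomes 6, X and Y, and limits of 2 and 5 CPM kept both Zfp counts within 1.5 times. The single lower corepressor gene became 2 under RLE, upper-quartile and total-count scaling and without a filter, 3 in DESeq2 and 0 in limma-voom, and 0 to 2 with 1 library left out, and DESeq2 called 1 higher. Clusters numbered 22 at a gap of 200 kb and 27 at 1000 kb. All 17 called genes kept their direction in every fit that gave them a value, which groups without overlap nearly ensure. No paired analysis was possible because the title numbers are not shared between the groups. Simulated 1.5-fold changes were recovered in 15.2% of cases, in draws where 200 of 15963 genes were changed. The data gave 1368 calls, so the recovery in the data may differ from that rate.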
